A study of Mus musculus with 2 samples.

Results

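Notch pathway genes were examined in the lens of newborn mice labelled as control or as lens-specific knockout of Foxp1, a forkhead transcription factor. The genes were taken by name from a list of 38 receptors, ligands, processing enzymes, nuclear cofactors, target genes and regulators, with no threshold on a measured value. Of the 38 genes, 37 were matched through RefSeq transcript accessions to 50 probes, out of 20655 genes named on the array. On both arrays 35 of the 37 were measured, with 46 probes. Hes3 was above background on the knockout array only, Hey2 was above background on neither array, and no probe was matched to Dlk2.

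Total RNA was labelled with Cy3 and hybridised to Agilent 1-colour arrays, with 1 array of control lens (genotype wild-type) and 1 array of knockout lens (genotype Foxp1 KO). Both samples were lens at postnatal day 0, from mice of a C57BL/6 mixed background, and the controls were litter mates. The treatment text is the same for both samples and names Foxp1-flox/flox and the driver Pax6-L-Cre, so the groups were taken from the genotype labels. The floxed exons, the cells in which the driver acts and any pooling of lenses are not given in the sources used here. With a single array per genotype the differences have no replicate check, and no p-value is given.

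In Notch signalling, a Delta or Jagged ligand on 1 cell binds a Notch receptor on its neighbour. The receptor is then cut by an ADAM protease and by the gamma-secretase complex, and its freed intracellular domain joins the DNA-binding protein RBPJ and a Mastermind coactivator to switch on Hes and Hey repressor genes. In the lens, Jag1 is known from the fibre cells and the cells about to become fibres, and Notch activity in the epithelium is known to keep cells dividing and to set when they leave the cell cycle.

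Values are processed signals, the scanner software's spot brightness after background subtraction. Differences are log2 values scaled to each array's 75th percentile, knockout minus control, and a difference of 1 is 2-fold. The error given is the spot SD, taken from 281 probes with 5 or more spots per array. It covers spot noise alone and nothing of the spread between animals or RNA samples. The 75th percentiles were 283 in control lens and 279.9 in knockout lens, so the signals of a bright probe on both arrays can be read side by side. For dim probes this does not hold. All 16 lens markers were measured, with a median difference of -0.01. The Foxp1 probes, the check of the labels, differed by -1.82, -1.84 and -1.33. Dim probes tended to read lower on the knockout array. In the dimmest of 5 equal signal classes of measured genes (mean signal up to 72.8) 23.9% were at least 2-fold lower, against 0.246% in the brightest class, and an added spike-in RNA read 82.3 in control lens and 37.6 in knockout lens.

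Of the 35 measured Notch pathway genes 1 was at least 2-fold lower in the knockout lens, the receptor gene Notch1, and 0 were at least 2-fold higher. Over all 14254 measured genes these shares were 5.86% lower (835 genes) and 1.02% higher (146 genes). That split of all genes depended on the scaling, with 774 higher and 233 lower after quantile normalization, 266 and 366 after loess, and 72 and 99 after normexp background correction. Scaling to array medians gave 8724 higher and 101 lower. The median difference of the 35 genes was 0.06, beside 0.01 for all genes, and 21 of the 35 lay above 0. More than 2 spot SDs above 0 lay 11 of the 35, and more than 2 spot SDs below 0 lay 8, where all genes gave 19.5% and 21.9%. The spot SD does not cover disagreement between probes of a gene. Among the 8 were Pofut1, Rbpj and Maml3, whose brightest probes lay above 0. Among the 11 was Maml2, whose second probe, not well above background on the knockout array, was lower. The 2-fold count and the median of the pathway were thus near those of all genes. Farthest from 0 were Notch1 at -1.99, Dll4 at -0.92, Adam10 at 0.75, Maml2 at 0.63 and Pofut1 at -0.58. Because the tissue was measured in bulk, fewer cells of a type and less RNA per cell cannot be told apart.

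**Figure D1:**
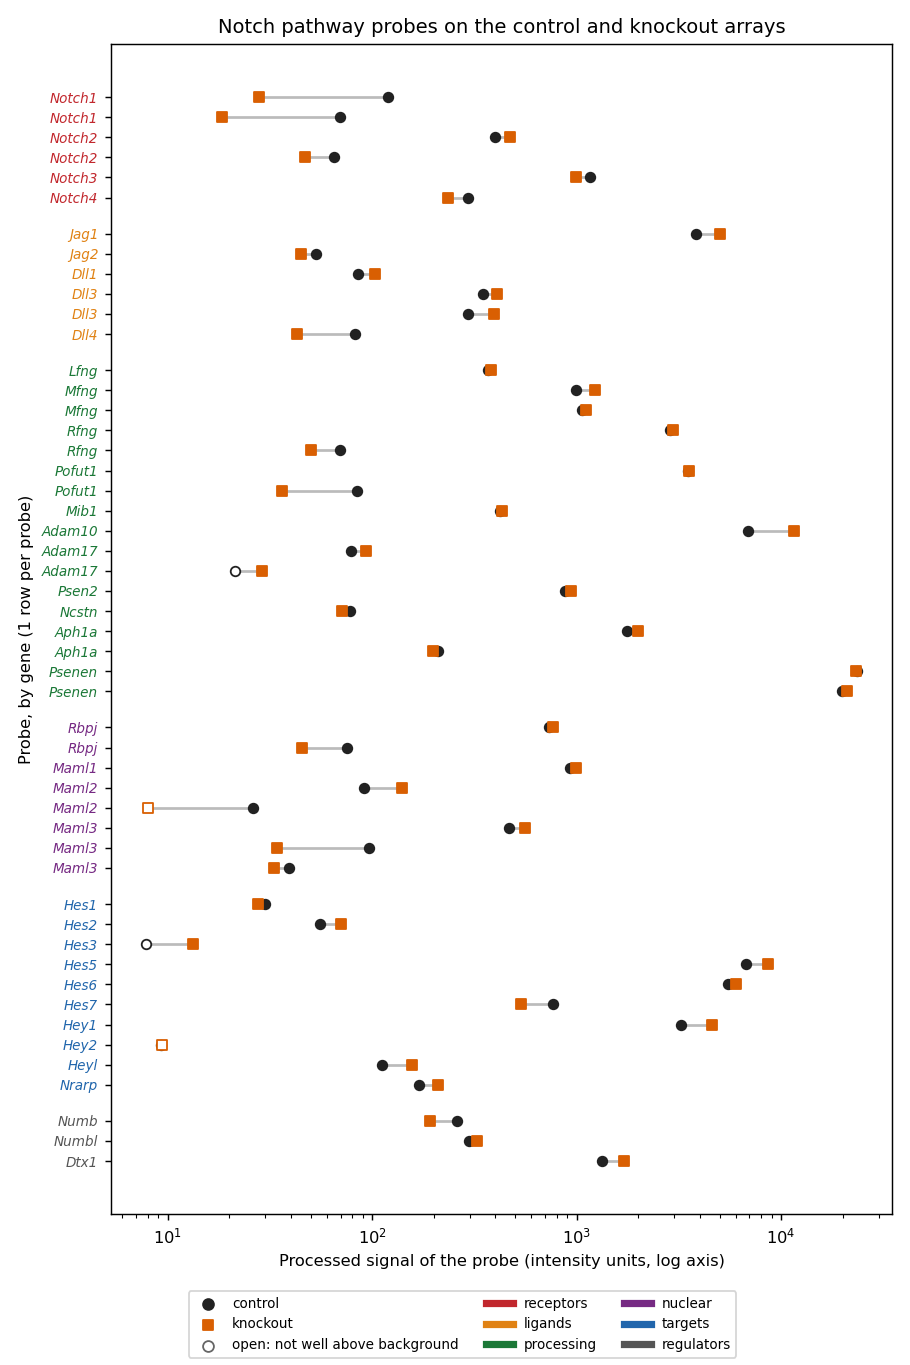
Processed signal (log axis) of each of the 50 Notch pathway probes on the control array (circles) and the knockout array (squares), 1 row per probe, with gene names coloured by role; open symbols were not well above background. Both Notch1 probes sit far to the left on the knockout array, at 27.99 and 18.4 against 119 and 69.8, while most other pairs of symbols lie close together.

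The receptor group held the largest difference of the pathway. Notch1, the receptor known from dividing progenitor cells of many tissues, read 119 in control lens and 27.99 in knockout lens with its brighter probe. Its other probe read 69.8 and 18.4. Both probes were well above background on both arrays, and both were lower in the knockout lens, by log2 differences of -2.07 and -1.91. The mean was -1.99 with a spot SD of 0.19, a 3.97-fold lower signal.

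The readings of Notch1 were dim. In the dimmest class, where Notch1 lay, 113 of 2851 genes (3.96%) read as low as it or lower, Notch1 included. With at least 2 measured probes in that class there were 386 genes, and in 3 of these, Notch1 again included, every probe was as low as the higher Notch1 probe. The spike-in nearest in signal, at 82.3 and 37.6, differed by -1.12, and a dimmer spike-in at 54.8 on the control array read 6.64 on the knockout array, not well above background. The part of this loss of dim signal in the Notch1 difference was not tested. Subtracting the trend of the difference on signal (loess) left Notch1 at -1.53, and quantile normalization left it at -1.19. It was no longer 2-fold lower after normexp background correction, at -0.83, or after scaling to array medians, at -0.91.

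Notch2, a receptor present in the lens epithelium, gave probes that disagreed. The brighter Notch2 probe read 399 in control lens and 472 in knockout lens, a difference of 0.26, while the dimmer read 65.3 and 46.8, a difference of -0.47. Their mean was -0.11 with a spot SD of 0.15, so that no direction can be given for Notch2. Notch3, known from the mural cells of vessels, read 1158 and 990.5, a difference of -0.21 at a spot SD of 0.12. Notch4, known from vessel endothelium, read 293 and 236, a difference of -0.30 at a spot SD of 0.14. The median of the 4 receptors was -0.26. Of the 3 below the median signal of all genes 0 had a mean above 0, beside 34.01% of all genes there, and after Notch1 the largest difference was that of Notch4, 1.23-fold.

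Of the 5 measured ligands Jag1, Dll1 and Dll3 read higher in the knockout lens, and Dll4 and Jag2 read lower. Jag1, the ligand known from lens fibre differentiation, read 3842 in control lens and 5014 in knockout lens, a difference of 0.40 at a spot SD of 0.08, or 1.32-fold. Dll1, a ligand of progenitor zones, was printed in 10 spots on each array. Its spots ranged from 72.5 to 99.8 on the control array, with a median of 82.5, and from 87.0 to 117 on the knockout array, with a median of 103.6. The ranges overlap, 9 of the 10 spots were higher on the knockout array, and the mean difference was 0.29 ± 0.20 (SD over 10 spots). Dll3, a divergent Delta protein that does not activate receptors on other cells, read 349 and 407 with one probe and 295 and 394 with the other. Both probes were thus higher, by 0.24 and 0.43.

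Dll4, the Delta ligand of vessel endothelium, read 82.0 in control lens and 42.9 in knockout lens. Its difference of -0.92 at a spot SD of 0.26, or 1.89-fold, depended on the processing. It was -1.05 when the scaling used only probes above background on both arrays, -0.56 after loess, -0.50 after normexp, -0.29 after quantile normalization and 0.16 after scaling to array medians, where all genes had a median of 1.08. Jag2 read 53.3 and 44.8, a difference of -0.24 that is smaller than its spot SD of 0.28. The median of the 5 ligands was 0.29. Dll4 and Jag2 were both in the dimmest class of genes, where the median difference of all genes was -0.50.

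**Figure D2:**
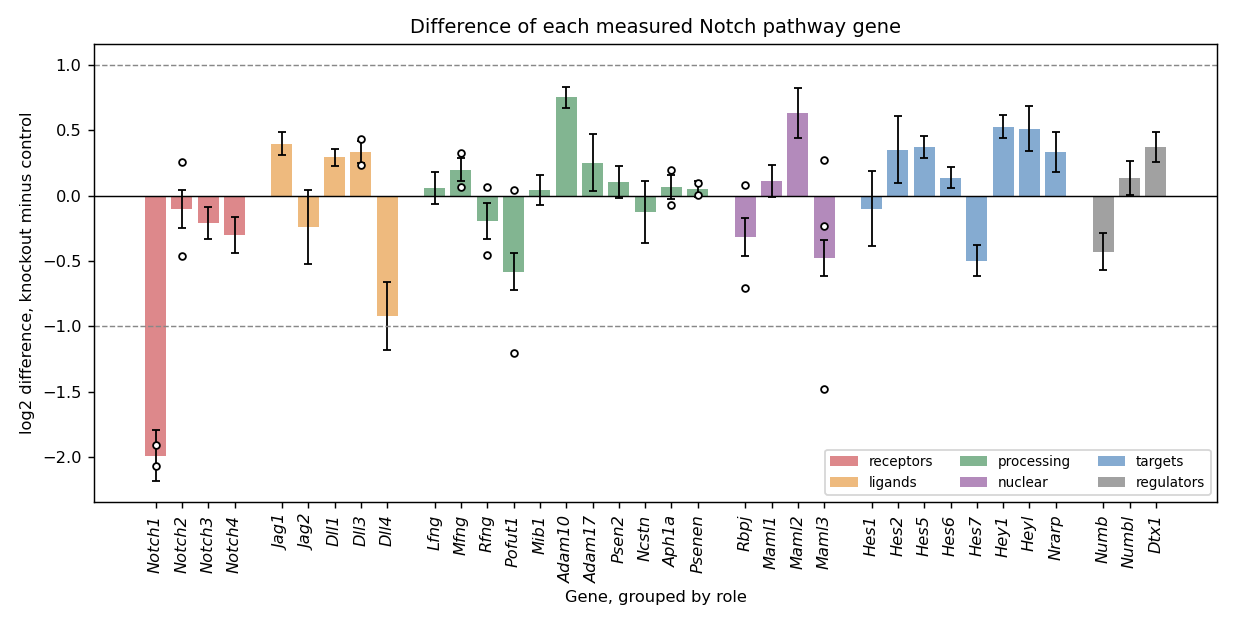
Log2 difference, knockout minus control, of the 35 measured Notch pathway genes grouped by role; bars are gene means, lines are 1 spot SD either way and open circles are the probes of genes with several. The Notch1 bar alone passes the dashed 2-fold line at -1, Dll4 comes close to it at -0.92, and Adam10 is the highest at 0.75.

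Of 11 measured processing genes 8 lay above 0 and 3 below, with a median of 0.06. Over all genes 50.9% lay above 0, and 67.8% of those at or above the median signal, where most of the 11 lay. More than 2 spot SDs from 0 were Adam10 and Mfng on the higher side and Pofut1 on the lower side. All genes gave 19.5% and 21.9% on these sides. Adam10, the protease that makes the first cut of ligand-bound Notch, read 6897 in control lens and 11493 in knockout lens. This difference of 0.75 at a spot SD of 0.08, or 1.68-fold, was the highest of the 35 genes. In the brightest class of all genes 32 of 2851 (1.12%) read as high or higher, Adam10 included. It was read by a single probe, and gave 0.68 after quantile normalization, 0.68 after loess and 0.84 after normexp. The related protease Adam17 read 79.1 and 93.3 with the probe that was above background on both arrays, a difference of 0.25 at a spot SD of 0.22. Its second probe was above background only on the knockout array, at 28.8 against 21.3. That is an observed difference of 0.45 at a spot SD of 0.29, or 1.37-fold, and not a lower limit.

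Gamma-secretase makes the second cut, within the membrane. Its subunit gene Psenen gave 23472 and 23345 with one probe and 19926 and 21059.9 with the other, and the mean difference was 0.05. Psen2, a catalytic presenilin, read 879 and 935, a difference of 0.10. Aph1a, a scaffold subunit, read 1761 and 1997.5 with its brighter probe and 210.0 and 198 with its dimmer one, a mean of 0.06. Ncstn, nicastrin, read 78.3 and 71.0, a difference of -0.13 at a spot SD of 0.24. All 4 differences were smaller than 2 spot SDs, as far as these arrays can show.

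The fringe genes encode glycosyltransferases that tune which ligands a receptor answers. Mfng read 990.6 in control lens and 1231 in knockout lens with its brighter probe, a difference of 0.33, but 1066 and 1107 with the other, a difference of 0.07. Lfng read 369.8 and 382, a difference of 0.06. Rfng and Pofut1 each paired a bright probe with a dim one. The bright Rfng probe read 2859.5 and 2968, a difference of 0.07, and the dim one 69.3 and 49.98, a difference of -0.46. Pofut1, which adds the fucose that fringes extend, read 3495 and 3556 with its bright probe, a difference of 0.04. The dim Pofut1 probe read 84.3 and 36.2, a difference of -1.21. The gene means of Rfng and Pofut1, -0.20 and -0.58, therefore came from their dim probes. Mib1, the ubiquitin ligase that lets ligands be pulled into the sending cell, read 421 and 429, a difference of 0.04.

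The nuclear genes gave no common direction. Rbpj, the DNA-binding partner of all Notch receptors, read 729 in control lens and 763 in knockout lens with its brighter probe, a difference of 0.08. The dim Rbpj probe read 75.03 and 45.5, a difference of -0.71. Maml1, the first of the Mastermind coactivators, read 927 and 991, a difference of 0.11 at a spot SD of 0.12. Maml2 read 90.9 and 139 with its measured probe, a difference of 0.63 at a spot SD of 0.19. A second Maml2 probe went the other way, from 26.2 to 8.05, a reading not well above background on the knockout array. Its signal was at least 2.14-fold lower, but a spike-in at 54.8 on the control array also fell, to 6.64 on the knockout array. The part of this loss of dim signal in the Maml2 limit was not tested. Maml3 was read by 3 probes. The brightest gave 466 and 558, a difference of 0.27, and the other two gave 96.3 and 34.2, a difference of -1.48, and 39.3 and 33.2, a difference of -0.23. For Rbpj, Maml2 and Maml3 the probes of the same gene thus lay on both sides of 0.

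**Figure D3:**
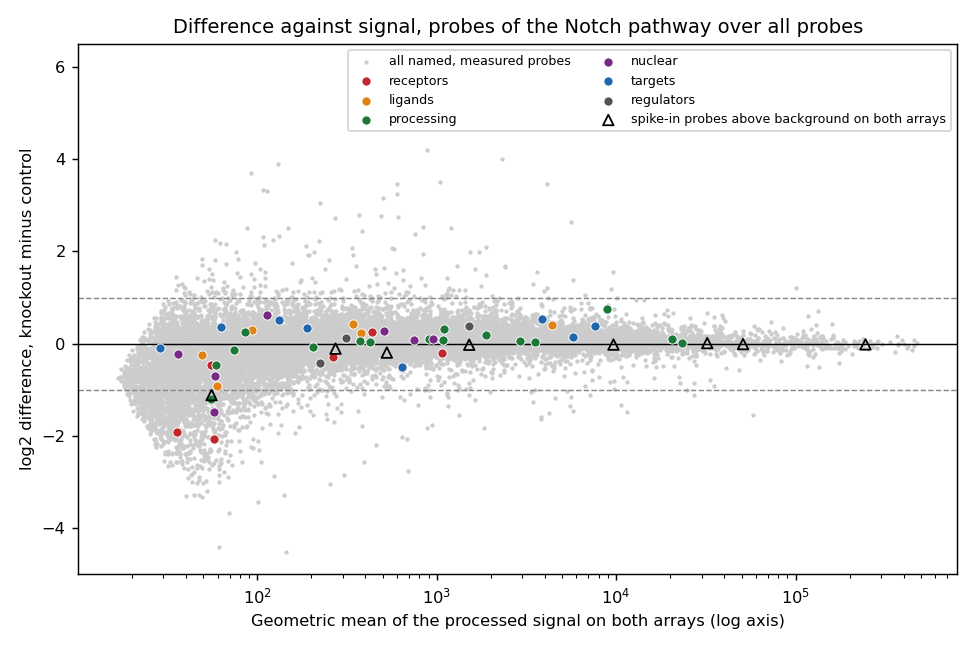
Log2 difference, knockout minus control, against the geometric mean of the processed signal on both arrays (log axis) for all named, measured probes (grey), Notch pathway probes coloured by role, and spike-in probes above background on both arrays (triangles); dashed lines mark 2-fold. Grey probes spread below 0 at the dim end, where both Notch1 probes, the dim probes of Pofut1 and Maml3, and a spike-in at -1.12 lie.

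As over the whole array, a dim probe of a pathway gene tended to read lower than a bright probe of the same gene. Of the 10 genes with several measured probes, the dimmest probe had the lower difference in 7, beside 66.7% over the 3543 such genes of the whole array. In the 6 genes whose probes were at least 4 times apart in signal, Aph1a, Maml3, Notch2, Pofut1, Rbpj and Rfng, the dimmest probe was lower in 6 of 6, with a median gap of -0.62. Over all 1693 such genes the share was 75.7% and the median gap -0.21. For Notch1 both matched probes were dim, so no such pair of a bright and a dim probe can be read.

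Of the 8 measured target genes 6 lay above 0 and 2 below, with a median of 0.34, and 0 of 8 reached 2-fold. All genes had a median of 0.01 with 50.9% above 0, a share that depended on signal. At or above the median signal 3 of 4 targets lay above 0, beside 67.8% of all genes, and below it 3 of 4, beside 34.01%. Hey1, a bHLH repressor switched on by Notch, read 3225 in control lens and 4598 in knockout lens. That is a difference of 0.53 at a spot SD of 0.09, or 1.44-fold. Hes5, a repressor of neural differentiation, read 6732 and 8631, a difference of 0.37 at a spot SD of 0.08. Heyl, another Hey family member, read 111 and 157, a difference of 0.51 at a spot SD of 0.17. Nrarp, a target whose product damps Notch signalling, read 169 and 210.3, a difference of 0.33 at a spot SD of 0.15. All 4 were higher on the knockout array by more than 2 spot SDs, as were 19.5% of all genes. Under normexp background correction Nrarp turned to -0.05, whereas it left Hey1 at 0.58, Hes5 at 0.39 and Heyl at 0.36.

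The other 4 measured targets lay on both sides of 0. Hes7, the oscillating repressor of the segmentation clock, read 767 and 537, a difference of -0.50 at a spot SD of 0.12, and gave -0.58 after quantile normalization, -0.57 after loess and -0.49 after normexp. Hes6, which counters Hes1, read 5499.9 and 5992, a difference of 0.14. Hes2 read 55.5 and 70.2, a difference of 0.35 at a spot SD of 0.26. Hes1, a Notch target in many tissues, gave dim readings of 29.8 and 27.5, a difference of -0.10 at a spot SD of 0.29, but 1.14 after quantile normalization and 0.54 after loess. Hes3 read 7.86 in control lens and 13.3 in knockout lens, where it was above background. Both readings lie under 20.6, the weakest spot of the control array that counted as above background, so no fold is given. Hey2 read 9.30 and 9.35, at background on both arrays.

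The upstream sequences of target genes are shown because RBPJ is known to bind DNA at the letters GTGGGAA, and because genes that carry them gave unlike readings here. The promoter table of RefSeq, build GRCm38.p6, held 31 of the 38 genes, with 40 start sites. The targets Hes1, Hes2, Hes3, Hey1 and Heyl, and Mfng and Mib1, were not among them and were not searched. In the 250 bases before a start site the letters were found on either strand (GTGGGAA or TTCCCAC) at 5 of the 40, in Hes5, Hes7, Hey2, Lfng and Psen2, beside 5.42% of all 32851 start sites. Hes5 held a pair on opposite strands, with 136 bases between them, and 0.161% of all start sites held at least 2. The sequences run 5′ to 3′ on the gene's strand up to the base before the start site, with the RBPJ letters in capitals. They lie at chr4:154960673-154960922 for Hes5 (plus strand), chr11:69120203-69120452 for Hes7 (plus), chr10:30842784-30843033 for Hey2 (minus), chr5:140607091-140607340 for Lfng (plus) and chr2:26503823-26504072 for Notch1 (minus), which holds no match and is shown as the gene with the largest difference.
Hes5: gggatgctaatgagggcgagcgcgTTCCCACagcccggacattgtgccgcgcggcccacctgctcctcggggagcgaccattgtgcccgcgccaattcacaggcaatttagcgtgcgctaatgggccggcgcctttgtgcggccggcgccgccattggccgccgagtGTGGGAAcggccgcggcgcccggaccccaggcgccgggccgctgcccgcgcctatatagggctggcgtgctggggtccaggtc
Hes7: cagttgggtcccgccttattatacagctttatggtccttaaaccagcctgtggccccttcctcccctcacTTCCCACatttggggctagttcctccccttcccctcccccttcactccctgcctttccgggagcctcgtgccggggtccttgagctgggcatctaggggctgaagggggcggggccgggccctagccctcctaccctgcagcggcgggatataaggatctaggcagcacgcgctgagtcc
Hey2: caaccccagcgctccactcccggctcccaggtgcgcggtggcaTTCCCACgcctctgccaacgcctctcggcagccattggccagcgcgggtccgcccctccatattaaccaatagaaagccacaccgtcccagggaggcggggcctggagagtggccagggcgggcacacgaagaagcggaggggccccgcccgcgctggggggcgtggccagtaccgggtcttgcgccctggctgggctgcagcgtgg
Lfng: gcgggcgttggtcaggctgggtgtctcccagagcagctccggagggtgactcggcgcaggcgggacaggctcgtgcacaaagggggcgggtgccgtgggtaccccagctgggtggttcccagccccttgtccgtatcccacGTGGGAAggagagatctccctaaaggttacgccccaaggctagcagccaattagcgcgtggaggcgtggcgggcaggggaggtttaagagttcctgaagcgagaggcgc
Notch1: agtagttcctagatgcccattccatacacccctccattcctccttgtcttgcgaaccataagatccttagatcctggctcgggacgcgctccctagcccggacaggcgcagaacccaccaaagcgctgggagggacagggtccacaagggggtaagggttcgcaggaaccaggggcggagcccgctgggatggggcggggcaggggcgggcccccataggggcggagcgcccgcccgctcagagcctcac
The genes with a match thus included Hes5 at 0.37, Hes7 at -0.50, Lfng at 0.06 and Hey2 at background, and a match is a description of the letters and not a bound site. The forkhead letters TGTTTAC (or GTAAACA), a form that forkhead factors bind, were found at 2 of the 40 start sites, 1 of Maml2 and 1 of Maml3, beside 3.17% of all start sites.

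Regulators of the pathway were mixed. Numb, an endocytic adaptor that holds Notch back, read 259 in control lens and 191 in knockout lens, a difference of -0.43 at a spot SD of 0.14. Its relative Numbl read 299 and 324, a difference of 0.13 at a spot SD of 0.13. Dtx1, a ubiquitin ligase that binds the Notch intracellular domain and is itself a target in some cells, read 1336 and 1713, a difference of 0.37 at a spot SD of 0.11. After quantile normalization, loess and normexp Numb gave -0.39, -0.40 and -0.31, and Dtx1 gave 0.25, 0.28 and 0.43.

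Of a list of 50 further genes 48 had a probe and 46 were measured, with 25 above 0, 21 below 0 and a median of 0.01. At least 2-fold higher was 1 of the 46 and at least 2-fold lower was 1, or 2.17% each. Over all measured genes these shares were 1.02% and 5.86%. The higher gene was Cntn1, a neural adhesion protein that has been described as a non-canonical Notch ligand. Its probe read 582 in control lens and 9295 in knockout lens, a difference of 4.01. The list was chosen with earlier results of these data known, so the count that includes Cntn1 is not an independent finding. The lower gene was Rbpjl, an RBPJ relative known from the pancreas, which read 68.6 and 22.0, a dim reading with a difference of -1.62. Of 15 nuclear corepressors 8 lay above 0, of 8 nuclear coactivators 5, of 9 further processing genes 4 and of 8 genes of receptor turnover 5. The medians of these groups lay between -0.04 and 0.03. Over all genes 50.9% lay above 0.

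Several members are also known from cell types next to the lens, so marker lists were read on the same arrays. Hes1, Hes5, Hey1, Dll1, Dll3 and Notch1 are among those known from retinal progenitors. Of 10 retinal progenitor markers 9 lay above 0, with a median of 0.30, and their summed signal was 23761 in control lens and 32931 in knockout lens, or 1.39 times. The sum rested on Ccnd1, a cell cycle gene, at 15889 and 23773, and without it the sums were 7872 and 9159, or 1.16 times. Of 11 retinal neuron markers 10 were measured and 10 lay above 0, with a median of 0.61 and summed signals of 6423 and 9754. Over all genes 50.9% lay above 0, and 67.8% of those at or above the median signal. Hes5, Hey1, Dll1 and Dll3 also read higher in the knockout lens. Notch1 read lower, and Hes1 differed by -0.10 at a spot SD of 0.29. Both were in the dimmest class, where 20.5% of all genes lay above 0. With 1 array per genotype, a shared direction does not show that readings are linked. The part of retinal RNA in the differences of Hes1, Hes5, Hey1, Dll1, Dll3 and Notch1 was not tested.

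Vessel markers moved less evenly. Of 9 measured endothelial markers 7 lay below 0, with a median of -0.22 and summed signals of 4272 and 4109.9. Most were dim, with Emcn, Sox17 and Tie1 in the dimmest class and Pecam1, Cdh5, Tek and Esam in the next. In those classes 20.5% and 39.3% of all genes lay above 0, and of the markers in them Tek alone did. Over all 9 measured markers, which include the brighter Kdr and Cldn5, the share was 22.2%. Dll4 differed by -0.92 and Notch4 by -0.30. The lowest marker was Emcn at -1.12, followed by Pecam1 at -0.63, Esam at -0.63, Sox17 at -0.42 and Tie1 at -0.22. Cdh5 at -0.09, Cldn5 at -0.01 and Kdr at 0.07 were near 0, Tek was higher at 0.86, and Erg was above background on neither array. Of 6 measured mural cell markers 4 lay above 0, where all genes gave 50.9%. The mural markers had a median of 0.04 and summed signals of 1868 and 4848, beside Notch3 at -0.21 and Heyl at 0.51. The sum for mural cells rested on Acta2, at 915 and 3871, and was 952 and 976 without it. The part of vessel cells in the differences of Dll4, Notch4, Notch3, Heyl and Notch1 was not tested. The remaining lists had medians of 0.50 for mesenchyme (5 measured of 8, summed signals 1069.5 and 1362), -0.14 for macrophages (5 of 9, 1782 and 1649), -0.39 for pigment epithelium (6 of 8, 6118 and 5459) and -0.28 for blood (6 of 8, 55873 and 46133).

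**Figure D4:**
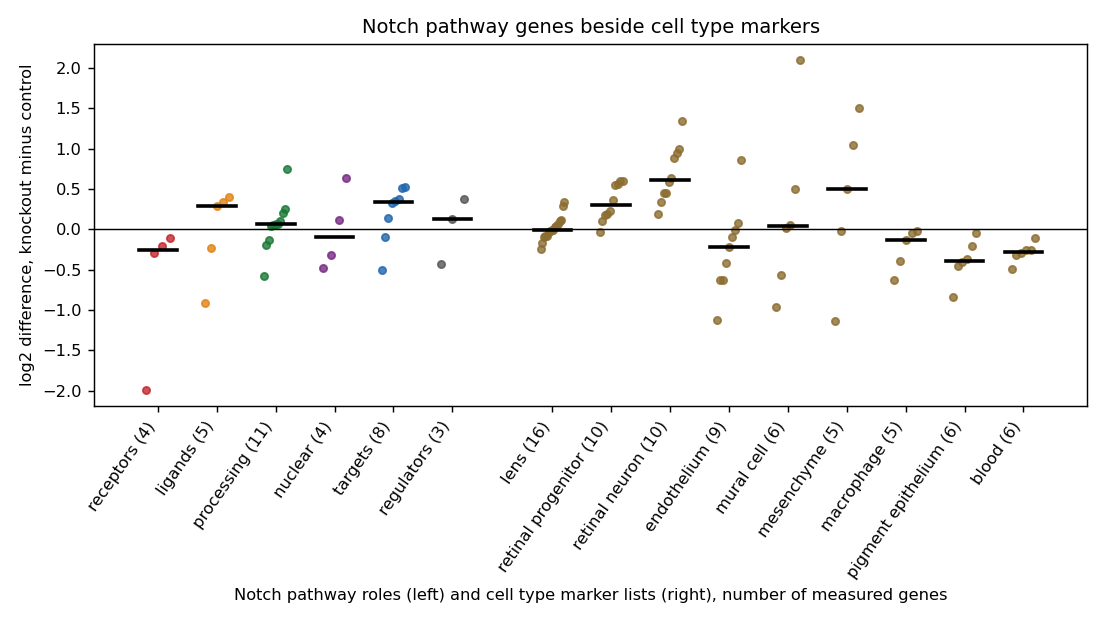
Log2 difference, knockout minus control, of each measured gene (points) and the median (bars) for the 6 Notch pathway roles on the left and 9 cell type marker lists on the right, with the number of genes in brackets. The targets (0.34), the ligands (0.29) and the retinal progenitor markers (0.30) have medians above 0, the lens markers lie at -0.01, and the receptors (-0.26) and endothelium (-0.22) lie below 0.

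The directions of the members were read under 8 other ways of processing the files, each set against the median of all genes under the same setting, since scaling to array medians raised every gene by 1.08. Of the 35 measured genes 18 kept their side of that median in every setting that gave them a value. Above it were 12 genes, the ligands Jag1, Dll1 and Dll3, the processing genes Adam10, Adam17 and Mfng, the targets Hes2, Hes5, Hey1 and Heyl, and Numbl and Dtx1. Below it were 6 genes, the receptors Notch1, Notch3 and Notch4, the ligand Dll4, the target Hes7 and Numb. Scaling to array medians and scaling by probes above background on both arrays move all genes alike, so these 2 of the 8 could not change a side. For a gene with a single probe only quantile normalization, loess and normexp change its own value otherwise. The other 17, among them Notch2, Rbpj, Hes1 and Nrarp, lay on either side of the median in different settings. The same count was not made over all genes, so whether 18 of 35 is more than usual cannot be said.

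**Figure D5:**
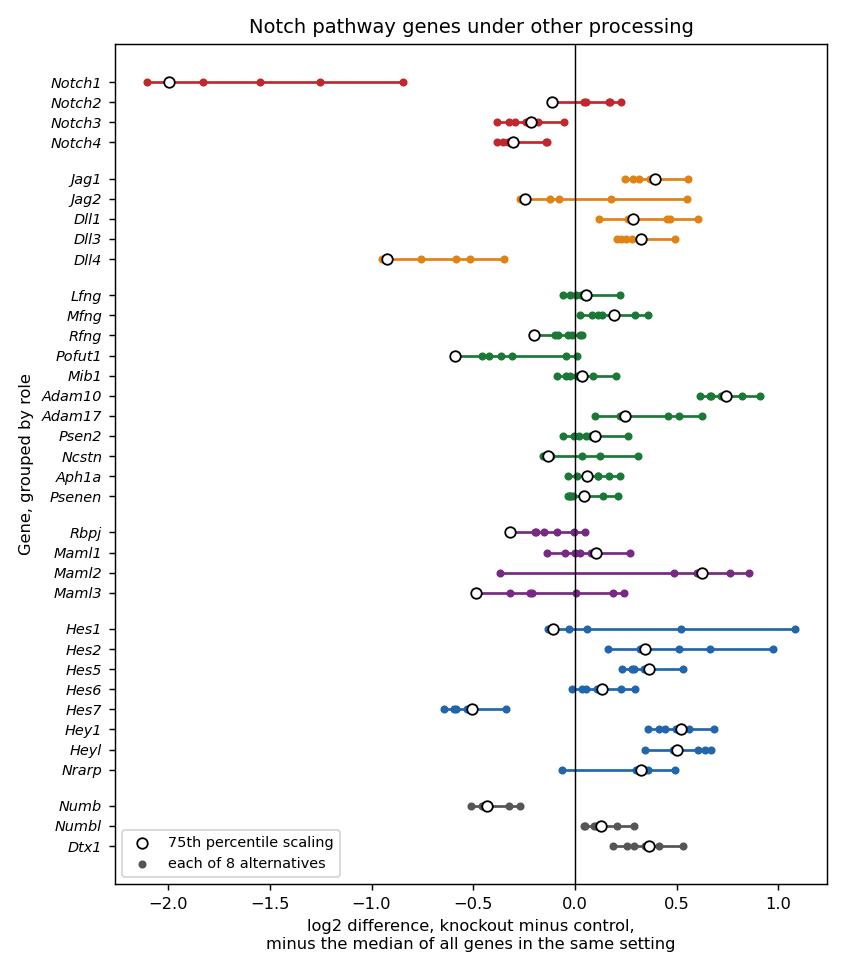
Log2 difference, knockout minus control, of each measured Notch pathway gene minus the median of all genes in the same setting, with the scaling to the 75th percentile (open circles) and 8 alternatives (filled points) joined by a line. Notch1 ranges from -2.10 to -0.85 and stays left of 0, Adam10 ranges from 0.61 to 0.91, and Hes1 and Maml2 cross 0.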

How the data were processed

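Total RNA of control and knockout lens was read on 1 array each. Per the file headers, the deposited intensity values were made with Agilent Feature Extraction 10.7.3.1 on a layout annotated to mm9, with background subtraction and spatial detrending and no recorded scaling between arrays. Outlier-flagged and control spots were left out here. Log2 processed signals were scaled to the 75th percentile of all gene spots of each array, the spots of a probe averaged, and the probes of a gene averaged where over 50% of their spots passed the scanner's flag for well above background on each array, which is called measured. A probe above background on 1 array was set against the higher of its own dim signal and the array's lowest signal called well above background. Only where the latter was higher can this give a bound. Probes were named by RefSeq accession (27225 of 55655 probes). With 1 array per genotype, at least 2-fold was a fixed rule of size and not a test. The members and lists were chosen with earlier results of these data known. All 38 members may be named, and other pathway genes are named where 2-fold apart. The steps were run on simulated data with spot noise alone and no loss of dim signal, so that run says nothing about dim readings. Python 3.11.15, numpy 2.4.6, pandas 2.3.3 and limma 3.58.1 were used.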

Additional observations from a re-analysis of the deposited data

How the results depend on the processing

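The counts of Notch pathway genes at least 2-fold apart (0 higher, 1 lower) and their median of 0.06 were recomputed under 8 alternatives. Scaling to array medians gave 21 higher, 0 lower and a median of 1.14, where 61.2% of all genes were higher and their median was 1.08. Scaling by probes above background on both arrays gave 2 lower, Notch1 and Dll4, where 7.57% of all genes were lower. Quantile normalization gave 2 higher, the dim Hes1 and Hes2, where 5.43% of all genes were higher. Normexp background correction with an offset of 50, added after the data were seen and run on median spot signals, gave 0 lower, as did keeping only probes at or above the median signal, which left 24 genes and not Notch1. In these settings 0.695% and 0.505% of all genes were lower. Normexp on mean spot signals was not run, because those are not among the columns used here. Loess, the brightest probe of each gene and no filter on background changed neither count. No paired analysis was possible because each genotype had 1 array, and no replicate could be left out. Dim signal limits the readings of Notch1, Dll4, Jag2, Hes1 and Hes2.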
